A study of Homo sapiens with 7 samples.

Results

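CTCF intervals at the edges of H3K27me3 domains are described here in HCT116 cells, an established human colorectal carcinoma line. The members were selected on the positions of 2 lists of ChIP-seq intervals: a CTCF interval was taken where its nearest base lay within 5000 bp of the start or end of an H3K27me3 interval at least 10000 bp wide, which is called a domain below. This rule selected 1444 of the 44812 CTCF intervals (3.22%, 95% Wilson interval 3.06 to 3.39%), around the 10238 edges of 5119 domains. The domains were taken from 55270 H3K27me3 intervals and had a median width of 15303 bp.

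Chromatin was sheared in a 96-well sonicator (PIXUL) for 6 min in 100 μl, from 200000 cells per well, with 7 antibodies and 1 library for each. Lists for CTCF, H3K27me3, H3K4me1, H3K4me3, H3K9Ac and H3K36me3 were used, and H3K27Ac was not analysed here. With 1 library per antibody there was no replicate error and no test, so every interval quoted covers counting error only. Of the 55270 H3K27me3 intervals, 0 carried the cell line in their names, whereas all names in the other 5 lists did.

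Through its zinc fingers, CTCF recognises a long DNA motif that has a direction, and with cohesin it holds chromatin loops. H3K27me3 is deposited by Polycomb repressive complex 2 over silent genes and can spread along chromatin. CTCF is often discussed as a boundary factor at the ends of such domains.

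The sequences that follow show what the motif looks like at edge members chosen by rank, namely those with the highest fold enrichment, those at the widest domains and those at wide domains with a member at both edges. Each is read from hg19 on the strand of the match, 5′ to 3′, with the 12-base core match in capitals.
DMRTA2: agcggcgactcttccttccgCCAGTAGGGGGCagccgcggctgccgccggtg
PSD2: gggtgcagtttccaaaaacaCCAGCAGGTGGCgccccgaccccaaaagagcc
TRD-AS1: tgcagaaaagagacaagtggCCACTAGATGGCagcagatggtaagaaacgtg
GRIP1: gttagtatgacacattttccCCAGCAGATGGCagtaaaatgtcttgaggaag
TMEM100: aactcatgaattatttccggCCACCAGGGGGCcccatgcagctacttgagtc
WDR11: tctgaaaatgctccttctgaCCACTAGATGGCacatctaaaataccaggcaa
TESPA1: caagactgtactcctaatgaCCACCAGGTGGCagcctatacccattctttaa
NEUROD4: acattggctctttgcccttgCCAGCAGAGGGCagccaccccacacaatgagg
TTN start edge: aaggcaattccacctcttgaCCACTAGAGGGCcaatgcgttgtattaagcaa
TTN end edge: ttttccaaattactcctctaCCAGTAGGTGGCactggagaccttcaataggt

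The names give the nearest protein-coding gene, or the long non-coding RNA gene that holds the interval in the case of TRD-AS1. The DMRTA2 sequence lies at chr1:50799391-50799442 on the minus strand and the PSD2 sequence at chr5:139167190-139167241 on the plus strand, both between protein-coding genes. The TRD-AS1 sequence (chr14:22855972-22856023, plus strand) stands 511 bp outside the start of the widest domain. The GRIP1 sequence (chr12:67087850-67087901, minus strand) is in an intron of GRIP1, and the TMEM100 sequence (chr17:53795665-53795716, minus strand) lies between genes. The WDR11 sequence was read at chr10:122495461-122495512 on the minus strand. At the domain that holds the transcription start site (TSS) of NEUROD4, the TESPA1 sequence (chr12:55387180-55387231, plus strand) and the NEUROD4 sequence (chr12:55466057-55466108, minus strand) flank opposite edges and face each other across the domain. Both TTN sequences (chr2:179565733-179565784 and chr2:179626683-179626734, plus strand) lie in introns of TTN, which encodes the muscle protein titin, and point in the same direction. All 10 flanked matches are outside annotated UTRs.

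The members were not spread evenly over the 5000 bp on each side. CTCF midpoints were most dense just outside the edge, with 35.7 per Mb in the first 1000 bp outside (95% Poisson interval 32.2 to 39.6) and 29.2 per Mb in the next 1000 bp (26.0 to 32.7). The density then dropped to 15.5 per Mb in the bin beyond, and over the stretch from 5000 to 20000 bp outside it was 14.8 per Mb (14.2 to 15.4). Inside the domain it fell at once to 8.40 per Mb in the first 1000 bp (6.72 to 10.4). Over 2000 bp, the outer strip held 665 midpoints (32.5 per Mb) and the inner strip 150 (7.33 per Mb), a ratio of 4.43 (3.71 to 5.33). These counts take a midpoint near 2 edges once for each edge, so they are not fully independent; with each midpoint and base counted once, the outer strip held 594 midpoints and the ratio was 4.25 (3.55 to 5.12). Counted once for each edge, the ratio was 6.84 (5.23 to 9.08) with CTCF held to a q-value below 1e-10 and fold above 5. It was 3.83 (2.71 to 5.52) at domains with a q-value below 1e-03 and fold above 2. With all intervals, the outer strip was also 2.19-fold above the stretch from 5000 to 20000 bp outside (2.01 to 2.39). By whole intervals, 880 of the 1444 members lay outside the domain (60.9%), 428 inside (29.6%) and 136 across the edge itself (9.42%).

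**Figure D1:**
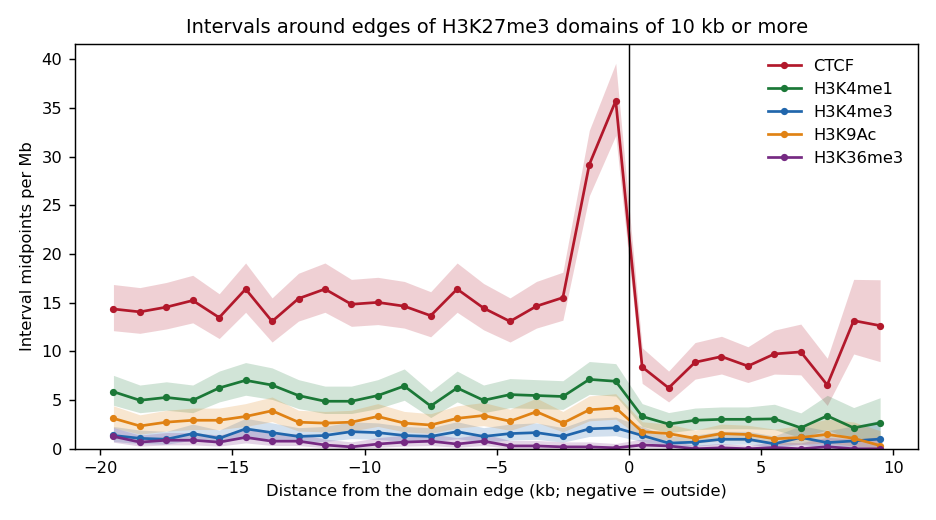
Interval midpoints per Mb (vertical axis) against the distance from the edges of H3K27me3 domains in kb (horizontal axis, negative outside), in bins of 1000 bp, for CTCF and 4 histone marks; shading is the 95% Poisson interval. CTCF peaks at 35.7 per Mb in the bin just outside the edge and stands at 8.40 per Mb in the bin just inside.

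Over all edges, the ratio of the outer strip to the stretch further out was lower for the active marks. H3K4me1, a mark of enhancers and promoter flanks, had 7.03 midpoints per Mb in the outer 2000 bp and 5.58 per Mb from 5000 to 20000 bp outside, a ratio of 1.26 (1.05 to 1.51). H3K9Ac, an acetylation of active promoters and enhancers, gave a ratio of 1.39 (1.09 to 1.75), and H3K4me3, the promoter mark, gave 1.47 (1.03 to 2.04). H3K36me3, which marks transcribed gene bodies, had 3 midpoints in the outer strip and 112 in the longer stretch. Over all edges, the intervals of these ratios do not reach that of CTCF except for H3K4me3, whose counts were small (43 midpoints in the outer strip). Within classes of gap width they often do. For gaps up to 2000 bp the H3K4me3 ratio was 2.01 (1.06 to 3.60, with 15 midpoints in the outer strip), close to the 2.18 of CTCF (1.90 to 2.51). For these gaps H3K9Ac gave 1.57 (0.996 to 2.39), and H3K4me1 gave 1.19 (0.839 to 1.64), which does not reach the interval of CTCF. For gaps of 2000 to 5000 bp H3K4me1 gave 1.80 (1.33 to 2.41) and H3K9Ac 1.70 (1.09 to 2.56), against 2.62 for CTCF (2.27 to 3.02). The drop from the outer to the inner 2000 bp was also seen for H3K4me1 (2.40, 1.76 to 3.30), H3K9Ac (2.47, 1.64 to 3.796) and H3K4me3 (2.15, 1.24 to 3.86), the last 2 with intervals that reach that of CTCF.

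The edges themselves were mostly not the ends of long H3K27me3 stretches. At 78.2% of edges the next H3K27me3 interval began within 5000 bp (8011 of 10238), and at 43.3% it began within 2000 bp. The distance to the next interval had a lowest value of 1177 bp and a median of 2292 bp. Thus many edges bordered a short gap between neighbouring H3K27me3 intervals, and the label of a domain edge holds for them only in the sense of the rule. The domains were also weak: fold enrichment had its median at 3.38, and the −log10 q-value at 2.31. Of the 5119 domains, 701 (13.7%) passed what the Methods ask of H3K27me3 (q-value below 1e-03, fold above 2).

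CTCF was dense within these gaps. Where the next H3K27me3 interval began within 2000 bp (4436 edges), CTCF stood at 29.8 per Mb in the outer 2000 bp (26.3 to 33.6) and at 8.23 per Mb in the following 2000 bp, beyond the gap. Where the gap measured 2000 to 5000 bp (3575 edges), CTCF stood at 37.1 per Mb in the outer 2000 bp (32.7 to 41.8), and the following 2000 bp, still partly in the gap, held 19.2 per Mb. The inner 2000 bp held 7.21 and 6.01 per Mb in these classes. Gaps of 2000 bp or less that touched a domain numbered 3806, of which 200 contained a CTCF midpoint (5.25%, 4.59 to 6.01%), and the CTCF density over their whole length was 35.1 per Mb (30.4 to 40.3). At the 1902 edges with gaps of 5000 to 20000 bp, the outer 2000 bp also stood out, at 28.9 per Mb against 16.3 per Mb from 5000 to 20000 bp outside (ratio 1.77, 1.42 to 2.18). Over their whole length, density in the 3119 gaps of 2000 to 5000 bp was 33.8 per Mb (30.3 to 37.6), and in the 1750 gaps of 5000 to 20000 bp it was 23.6 per Mb (21.2 to 26.1). Even so, most short gaps had no CTCF interval, and those with one were only slightly wider (median 1513 bp against 1448 bp for gaps up to 2000 bp).

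The 325 edges with no other H3K27me3 interval within 20000 bp had few midpoints. CTCF stood at 40.0 per Mb in the outer 2000 bp (26.1 to 58.6), at 41.5 per Mb in the next 2000 bp and at 29.1 per Mb from 5000 to 20000 bp outside (24.5 to 34.3). The ratio of the outer 2000 bp to that longer stretch was 1.37, and its interval (0.867 to 2.10) includes both 1 and the 1.77 of gaps of 5000 to 20000 bp. The interval of this ratio lies below that of gaps of 2000 to 5000 bp (2.62, 2.27 to 3.02). It overlaps those of the other 2 classes, with 26 midpoints in the outer strip. The inner 2000 bp held 13.8 per Mb (6.33 to 26.3). The surroundings differed, with H3K4me1 at 23.4 per Mb and H3K36me3 at 13.5 per Mb from 5000 to 20000 bp outside, against 4.09 and 0.150 per Mb at edges with a gap of up to 2000 bp. The part of these surroundings in the CTCF profile was not tested.

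**Figure D2:**
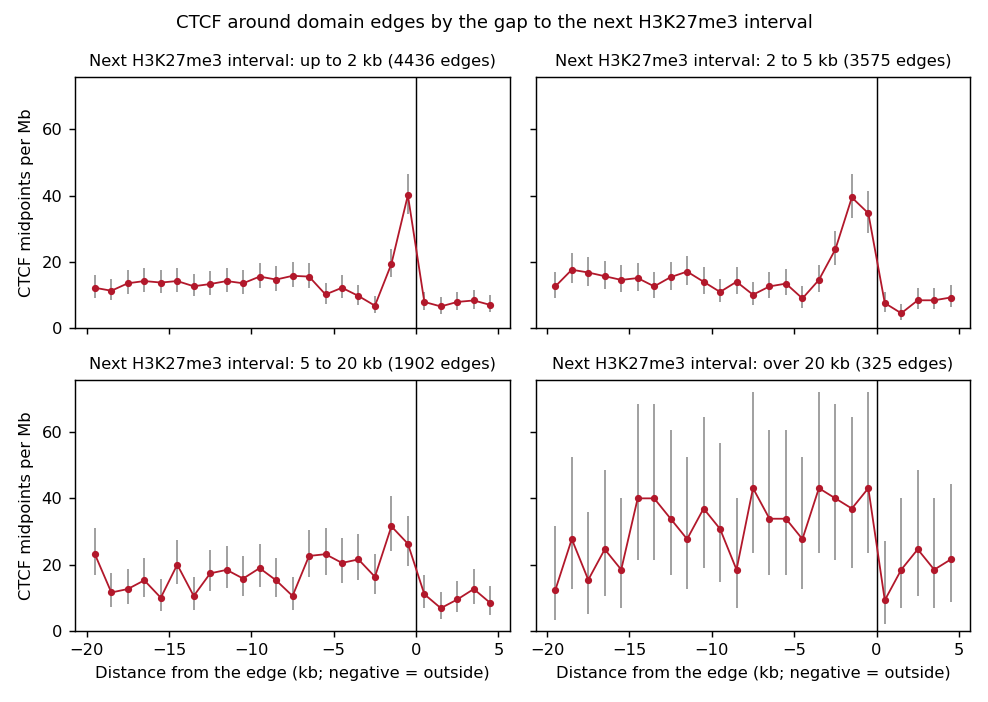
CTCF midpoints per Mb (vertical axis) against the distance from the domain edge in kb (horizontal axis, negative outside), in bins of 1000 bp, with edges split by the gap to the next H3K27me3 interval; bars are 95% Poisson intervals. The outer 2000 bp stand at 29.8, 37.1, 28.9 and 40.0 per Mb from the shortest gaps to the longest, the last from 325 edges.

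Summed over the whole windows of 5000 bp on both sides, the edges held 15.0 CTCF midpoints per Mb (14.2 to 15.8), from 1375 midpoints in 92.0 Mb. Domain interiors, more than 5000 bp from both edges, held 9.89 per Mb (9.001 to 10.8), and the genome as a whole held 15.7 per Mb. Windows shifted by 50 kb away from the domain, and outside all domains, held 18.8 per Mb (17.6 to 19.96). The density at edges was therefore 1.51-fold that of interiors (1.36 to 1.68) but 0.796-fold that of shifted edges (0.734 to 0.864). The second ratio depended on the inner side of the windows, which is inside a domain. Counted once for each edge, the outer side held 21.6 per Mb and the inner side 8.30 per Mb. With each base counted once and bases within domains left out, the outer side was 1.24-fold above shifted edges (1.14 to 1.36). With H3K27me3 past the limits of the Methods, the ratio of whole windows to shifted edges was 1.09 (0.923 to 1.29). The active marks were also sparser at edges than at shifted edges, with ratios of 0.420 for H3K4me1, 0.407 for H3K4me3, 0.375 for H3K9Ac and 0.0373 for H3K36me3. Relative to interiors they were denser at edges, as CTCF was, with ratios of 1.80, 1.91 and 2.18 for the first 3. H3K36me3 had 2 midpoints in interiors (ratio 4.74, 1.14 to 41.99).

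A CTCF interval within 5000 bp was found at 1513 of 10238 edges (14.8%, 14.1 to 15.5%). It was 24.3% at domains past the H3K27me3 limits and 8.47% when CTCF was held to the stricter limits. At domains past the H3K27me3 limits, the outer 2000 bp held 57.4 CTCF midpoints per Mb (48.9 to 67.0), against 32.5 at all edges. These domains also had a higher density from 5000 to 20000 bp outside (21.1 against 14.8 per Mb) and in the inner 2000 bp (15.0 against 7.33). Start and end edges gave similar shares, 15.3% and 14.3%. Of the 5119 domains, 3750 had no member at either edge, 1225 had one at 1 edge and 144 at both edges (2.81%, 2.39 to 3.30%). The share of edges with a member was 14.1% in the narrowest of 4 width classes (13.1 to 15.1%) and 19.2% in the widest (16.01 to 22.8%). Domains that contained the TSS of a protein-coding gene had a member more often, 149 of 378 (39.4%, 34.6 to 44.4%), than domains without one, 1220 of 4741 (25.7%, 24.5 to 26.997%). Their median width was larger too, 17617 bp against 15084 bp, and the part of width in this difference was not tested.

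Edge members were poor in active marks, none of which entered the rule. H3K4me1 overlapped 184 of the 1444 members (12.7%, 11.1 to 14.6%), against 31.8% of all CTCF intervals. H3K9Ac overlapped 145 (10.04%, 8.60 to 11.7%), against 29.6%. For H3K4me3 the count was 70 (4.85%, 3.85 to 6.08%), against 16.3%. At domains past the H3K27me3 limits, H3K4me3 overlapped 8.17% of members (5.75 to 11.5%). At the shifted edges of all domains it overlapped 7.85%. The overlap at shifted edges of domains past the limits alone was not counted. For H3K36me3 the count was 6 (0.416%, 0.191 to 0.904%), against 10.5%. Without H3K4me1, H3K4me3 and H3K9Ac were 1230 members (85.2%, 83.3 to 86.9%), compared with 63.2% of all CTCF intervals.

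The 2 comparison classes bracketed the members in this respect. CTCF intervals in domain interiors (424) overlapped H3K4me1 in 7.55% (5.397 to 10.5%) and H3K9Ac in 4.72% (3.07 to 7.17%). Those at shifted edges (1019) did so in 19.9% (17.6 to 22.5%) and 15.4% (13.3 to 17.8%). Edge members thus lay between the classes for both marks, with intervals that do not overlap those of the shifted edges. The 99 members whose every edge within 5000 bp had no other H3K27me3 interval within 20000 bp outside were nearer to the whole list, with H3K4me1 at 28.3% (20.4 to 37.8%) and H3K4me3 at 15.2% (9.40 to 23.5%).

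**Figure D3:**
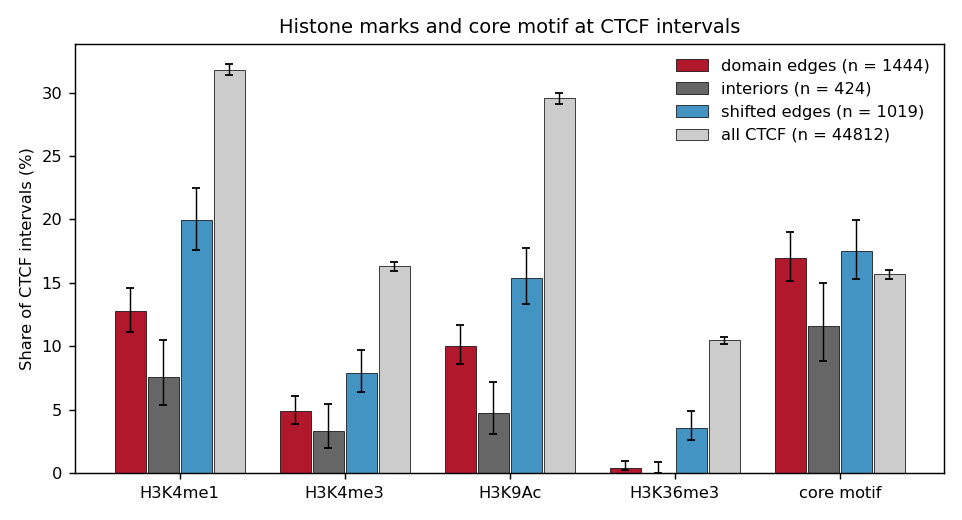
Share of CTCF intervals in % (vertical axis) that overlap each of 4 histone marks by at least 1 bp or contain an exact core motif, for members at domain edges, domain interiors, shifted edges and all CTCF intervals; bars start at 0 and whiskers are 95% Wilson intervals. Edge members overlap H3K4me1 in 12.7% and all CTCF intervals in 31.8%, whereas the core motif is present in 17.0% and 15.7%.

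Like the comparison classes, members were further from genes than the whole list. Their median distance to the nearest protein-coding TSS was 81832 bp, against 33092 bp for all CTCF intervals, 55361 bp at shifted edges and 74877 bp in interiors. A TSS lay within 1000 bp of 67 members (4.64%, 3.67 to 5.85%), compared with 12.1% of all CTCF intervals, 4.91% at shifted edges and 3.07% in interiors. By their midpoints, 845 members were between genes (58.5%), 565 in introns (39.1%) and 34 in exons (2.35%) of protein-coding genes. For all CTCF intervals these shares were 48.4%, 44.6% and 7.04%, and at shifted edges 58.3%, 36.9% and 4.81%.

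In strength the members resembled the rest of the list. Their fold enrichment over the local background ranged from 1.38 to 29.3 with a median of 7.26, and the median of all CTCF intervals was 7.15. The Methods state no limits for CTCF; those they set for other histone marks (q-value below 1e-10, fold above 5) were met by 800 members (55.4%, 52.8 to 57.9%), against 54.8% of all CTCF intervals. Within the edges, the 594 members in the outer 2000 bp passed in 63.3% (59.3 to 67.1%), and CTCF intervals of domain interiors passed in 39.4% (34.9 to 44.1%) with a median fold enrichment of 5.79. Median width was 631 bp for members and 654 bp for all CTCF intervals.

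The core motif was counted in each class. An exact match to the 12-base CTCF core motif on either strand was found in 245 of the 1444 members (17.0%, 15.1 to 18.99%), against 15.7% of all CTCF intervals and 17.5% at shifted edges. In the same intervals moved by 10000 bp, it was found in 0.762% for members and in 0.462% for all CTCF intervals. Members in gaps of up to 5000 bp had the motif in 21.6% (18.3 to 25.3%) and those of domain interiors in 11.6% (8.85 to 15.0%), in the same order as their fold enrichment (medians of 8.36 and 5.79). The share of members with the motif went from 4.66% in the lowest of 4 equal classes of CTCF fold enrichment (2.84 to 7.54%) to 29.9% in the highest (25.3 to 35.0%), close to the 4.88% and 26.96% of all CTCF intervals in these classes. All 16 core words that the motif allows occurred among the members, led by CCACTAGATGGC with 25 matches and CCACTAGAGGGC with 23. A match describes the sequence and does not show where the protein was bound.

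The direction of the motif was counted where all exact matches of a member lay on 1 strand and the member stood at 1 kind of edge, which left 207 members. A plus-strand match at a start edge, or a minus-strand match at an end edge, was counted as facing the domain. The motif faced the domain in 116 and away from it in 91 (56.0% facing, 49.2 to 62.6%), an interval that includes 50%. The share fell below 50% under 3 alternatives: 45.3% with H3K27me3 past its limits, 47.7% with both lists limited and 40.0% at edges without another H3K27me3 interval within 20000 bp, each with an interval that includes 50%. It was 59.8% for domains of 20000 bp or more (49.3 to 69.4%) and 59.5% within 10000 bp of an edge (53.6 to 65.1%), the only alternative whose interval leaves out 50%. Split by position after the values were seen, the share was 47.8% in the outer 2000 bp (43 of 90, 37.8 to 58.0%), 69.4% further outside (50 of 72, 58.0 to 78.9%) and 51.1% inside (23 of 45, 37.005 to 65.04%). With 1 mismatch allowed, the share further outside was 58.4% (128 of 219, 51.8 to 64.8%). In the outer 2000 bp, the share was thus near 50% with exact matches and with 1 mismatch, and neither interval shows a prevailing direction. The split further out was not tested.

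**Figure D4:**
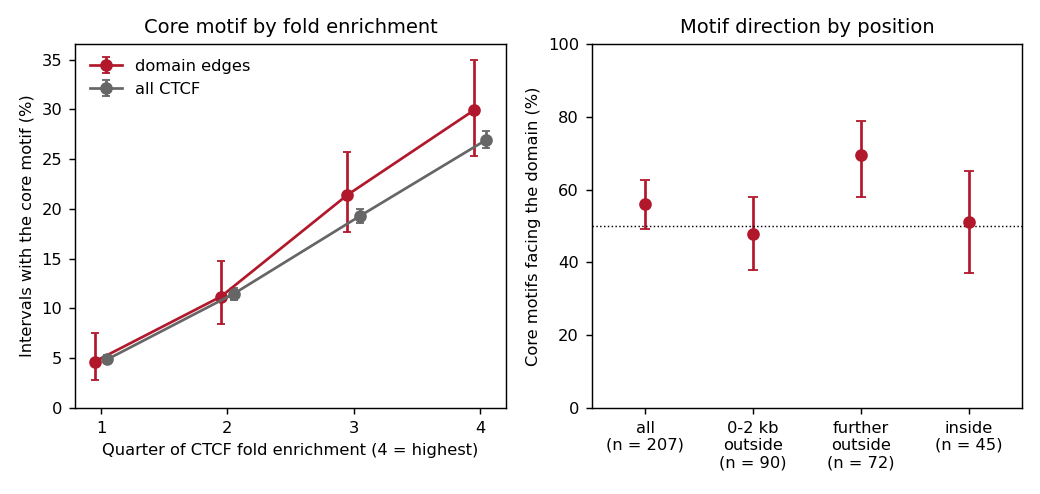
Left, share of CTCF intervals with an exact core motif in % (vertical axis) by class of CTCF fold enrichment (horizontal axis), for members at domain edges and for all CTCF intervals; right, share of core motifs that face the domain in % by position of the member, with a dotted line at 50%. Whiskers are 95% Wilson intervals; the motif share rises from 4.66% to 29.9% in members, and the share facing the domain is 56.0% over 207 members (49.2 to 62.6%).

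The members with the highest fold enrichment were unlike the typical member. All 10 had their midpoints outside the domain, and 2 contained the exact core motif. H3K4me1 overlapped 10 of them, H3K9Ac 9 and H3K4me3 6, and 7 had a coding TSS within 1000 bp. Strong CTCF intervals were often marked anywhere. In the highest of 4 equal classes of fold enrichment, H3K4me1 overlapped 51.1% of all CTCF intervals and 26.7% of members. For H3K9Ac these shares were 47.8% and 23.5%, for H3K4me3 21.8% and 9.38%, and for a TSS within 1000 bp 13.5% and 7.62%. The highest (fold enrichment 29.3) spanned the start of a domain of 32037 bp on chromosome 8 and lay 384 bp from the TSS of MROH5. The next (26.4, chr7:3340228-3341045) contained the TSS of SDK1, which encodes a cell adhesion molecule of synapses, 792 bp outside a domain of 89559 bp. Another (25.2, chr3:37493151-37494041) contained the TSS of ITGA9, an integrin subunit, 1248 bp outside its domain. At chr10:6621806-6622969 the member (24.9) contained the TSS of PRKCQ, a protein kinase of T-cell signalling, and lay 133 bp from the domain end. The member across the end of a domain of 16787 bp (22.9) contained the TSS of DISP3. Near POU2F2, a lymphoid transcription factor, the member (24.02) lay 358 bp from the TSS. The member in EMX2OS (23.5) lay 4534 bp from the TSS of EMX2, a homeobox factor of the developing brain and urogenital tract. The 2 members whose sequences are shown above under DMRTA2 (26.2) and PSD2 (22.8) lay 4730 and 4526 bp from their domains, and 89308 and 7140 bp from the TSS of those genes. The remaining member (24.8, chr20:30539461-30540288) contained the TSS of PDRG1 and faced a domain over XKR7, with no other H3K27me3 interval within 477370 bp outside that edge.

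Among the 10 widest domains, 6 had a member. The widest, of 142519 bp on chromosome 14, lies over T-cell receptor genes. It had a member 164 bp outside its start (fold enrichment 12.7, within TRD-AS1) and a weaker one 3671 bp inside (6.20). A domain of 102720 bp over GRIP1, which encodes a scaffold of glutamate receptors, had a member across its end (7.71) and one 4397 bp outside (7.67), both in introns of GRIP1. Beyond the end of a domain of 109314 bp, a weak member (4.01) lay in an intron of RORA, a nuclear receptor gene. A domain of 101977 bp on chromosome 17 had a member 4773 bp beyond its end (15.5), near TMEM100. No mark of activity overlapped any member of these 10 domains. Of all members, 85.2% overlapped none of H3K4me1, H3K4me3 and H3K9Ac, so these few members do not set the widest domains apart.

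Members stood within 5000 bp of both edges at 144 domains, and the 5 widest of these differed in how the members were placed. The domain of 94158 bp over the defensin genes DEFA1, DEFA1B and DEFA3 had both members inside, 2598 and 4762 bp from its edges. The domain of 74533 bp with the TSS of NEUROD4, a neurogenic transcription factor, had a member 148 bp outside the start (fold enrichment 12.1), one across the end (6.67) and one 3522 bp outside the end (11.6). A domain of 88602 bp on chromosome 10 had a member 1036 bp inside its start (12.2) and one 1338 bp outside its end (11.5). The domain of 58530 bp within TTN had a member across its start (13.6) and one 1950 bp beyond its end (12.6). A domain of 61162 bp on chromosome 8 had weaker members on both sides, at 1328 and 2359 bp (4.60 and 4.804).

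Gene lists were read by the TSS. Of 20136 protein-coding genes, 431 had their TSS in a domain (2.14%, 1.95 to 2.35%), and 187 of these had a member at an edge of their domain (43.4%, 38.8 to 48.1%). Polycomb is known for covering HOX clusters in many cell types, but 0 of 39 HOX cluster genes had their TSS in a domain or in any H3K27me3 interval of the list (upper Wilson limit 8.97%), so no HOX edge could be described. Among all protein-coding genes, 5.59% had their TSS in any H3K27me3 interval. The domains held 0 of 46 forkhead, 0 of 17 T-box and 0 of 6 GATA factor genes, 0 of 53 clustered protocadherins, 0 of 27 imprinted genes, 0 of 13 secreted Wnt antagonists and 0 of 83 cytoplasmic ribosomal protein genes, although 3 forkhead genes, 1 T-box gene and 1 Wnt antagonist gene lay in narrower H3K27me3 intervals. At the share of 2.14% over all genes, lists of this size hold few genes in domains or none. Of 20 SOX factor genes, 1 lay in a domain (SOX6), without a member. Of 129 homeobox factor genes outside the HOX clusters, 3 lay in domains (2.33%, 0.794 to 6.61%), near the share over all genes. Of these 3, 1 had a member at an edge (BARX2, described below). In any H3K27me3 interval lay 13 of the 129 (10.1%, 5.98 to 16.5%), against the 5.59% over all protein-coding genes.

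Channels and receptors of neurons were the list with the largest share in domains, 18 of 196 genes (9.18%, 5.89 to 14.0%), and 7 of these 18 had a member at an edge (38.9%, 20.3 to 61.4%, against 43.4% for all protein-coding genes in domains). GRM8, a metabotropic glutamate receptor, lay in a domain of 57785 bp with a member 586 bp inside its end (fold enrichment 12.9), which overlapped H3K4me1, H3K4me3 and H3K9Ac and stood 537 bp from the TSS. The domain of 25164 bp at the sodium channel gene SCN9A had a member 423 bp inside its start (7.95) and another 702 bp inside its end (7.10). KCNQ3, a potassium channel gene, had a member across the end of its domain (10.7). BARX2, a homeobox factor gene outside the HOX clusters, lay in a domain with a member at both edges: the one 1279 bp outside the start (19.2) overlapped no active mark, and the one 4044 bp inside the end (5.01) contained the BARX2 TSS together with H3K4me1, H3K4me3 and H3K9Ac.

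Domains were unevenly distributed over the chromosomes, whereas the share of edges with a member varied less. The highest numbers of domains per Mb were on 16q (3.74), 16p (3.48), 8q (3.29) and 10q (3.25), and the X chromosome had 13 domains in all. On the 6 arms with the most domains per Mb, 16.7% of edges had a member (15.3 to 18.3%), and on the remaining arms 14.2% did (13.4 to 15.0%). The ratio of the outer to the inner 2000 bp was 4.85 (3.34 to 7.24) on the former and 4.31 (3.52 to 5.32) on the latter, so the rise outside the edge was seen in both groups. These groups of arms were formed after the counts were seen, and copy number was not measured here.

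Beside edges with a member, active marks were found more often in the 20000 bp outside. An H3K4me1 interval was present there at 309 of 1513 edges with a member (20.4%, 18.5 to 22.5%) and at 720 of 8725 edges without one (8.25%, 7.69 to 8.85%). For H3K9Ac the shares were 13.5% (11.9 to 15.4%) and 4.58% (4.17 to 5.04%), and for H3K4me3 they were 7.204% (6.01 to 8.62%) and 2.28% (1.99 to 2.62%). Where the gap was up to 2000 bp, H3K4me1 was present at 13.8% of edges with a member (11.2 to 17.0%) and 6.22% of those without (5.50 to 7.02%). Members that overlap these marks themselves are included in these counts.

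The values next to the threshold of 5000 bp are given as a description. The 3 members furthest from an edge were 4984, 4980 and 4977 bp away, with fold enrichments of 14.2, 11.6 and 10.9. The 3 CTCF intervals just beyond it were 5001, 5003 and 5008 bp away, with fold enrichments of 4.001, 4.11 and 3.08.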

How the data were processed

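Alignment to hg19 used BWA 0.7.12. For peaks the authors' Methods name MACS2 in broad mode (cutoff 0.1), whereas the submitters' processing notes name MACS 1.4.2. The lowest −log10 q-value in each of the 6 lists lay between 1.00 and 1.03, which matches the cutoff of 0.1 in the Methods. Fold enrichment (a linear ratio over local background), −log10 p-value and −log10 q-value are those the authors deposited. The lists hold no read counts, so depth is unknown; depth affects interval number, width and the breaks in broad intervals. The Methods name paired-end reads and the sample labels paired-end or single-end reads, without saying which library had which; this can also affect widths and breaks.

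All deposited intervals were used. Interval positions, GENCODE 44 on hg19 and the hg19 sequence were combined in Python 3.11.15 with numpy 2.4.6, scipy 1.17.1, pysam 0.24.0 and matplotlib 3.10.9. Overlap meant at least 1 bp. Densities count midpoints, and those of edges, interiors and shifted edges leave out assembly gaps. Shares carry 95% Wilson intervals, densities exact Poisson intervals and ratios exact conditional intervals, all for counting error only. The code was tested on simulated data. Members and gene lists were chosen with earlier results of these data known. Named members were the 10 highest in fold enrichment, those at the 10 widest domains, at the 5 widest domains occupied at both edges, at domains with a HOX TSS, at up to 4 genes per list, and 3 on each side of 5000 bp. Alternatives changed the limits, width, distance, shift, merging, overlap and mismatches. The H3K27me3 list's interval names do not name HCT116 (0 of 55270), and H3K27Ac was not analysed here. The Methods limits were a q-value under 1e-03 and fold over 2 for H3K27me3, H3K4me1 and H3K27Ac, and a q-value under 1e-10 and fold over 5 for other histone marks. They state none for CTCF, to which the latter were applied here as a choice. bcl2fastq 2.20.0.442 and SAMtools 0.1.19 were used upstream.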

Additional observations from a re-analysis of the deposited data

How the results depend on the processing

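No paired analysis was possible because each antibody had 1 library. The H3K27me3 domains were weakly enriched, 78.2% of their edges bordered a gap of up to 5000 bp, and library depth is unknown, so the edges depend on where the caller broke broad intervals. Of 84 alternatives over 7 results, 38 stayed within the main 95% interval (for the 10 on the number of members, within 1.5 times the main count), 41 moved and 5 crossed 1. Of those 5, the intervals of 3 include 1. Merging, the limits, width, distance and shift were set before these files were opened, though with earlier results of the data known; the settings by gap, by outer side and with both lists limited were chosen after seeing the data. Where not stated, the cause of a change was not tested.

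With CTCF held to the limits for other histone marks, members were 800, edge to interior density 2.09, edges with a member 8.47% and the core motif 24.7%. With H3K27me3 past its limits, members were 355, edge to shifted edge density 1.09 (0.923 to 1.29), edges with a member 24.3%, H3K4me3 overlap 8.17% and motifs facing the domain 45.3%. With both lists limited, members were 204, edge to interior density 2.18, edge to shifted edge density 0.981, H3K4me3 overlap 6.86%, the core motif 25% and motifs facing the domain 47.7%.

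With domains of 20000 bp or more, members were 484, edge to shifted edge density 0.876 and edges with a member 16.05%. With 5000 bp or more, these were 2884, 0.729 and 14.0%, and H3K4me3 overlap was 6.35%. Within 2000 bp of an edge, members were 811, edge to interior density 1.997, edge to shifted edge density 1.01 (0.895 to 1.13) and edges with a member 8.73%. Within 10000 bp, members were 2235 and edges with a member 24.1%. With distance taken from the midpoint, 14.0% of edges had a member. With H3K27me3 intervals within 5000 bp merged, members were 2292, edges with a member 16.7% and H3K4me3 overlap 7.33%.

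H3K4me3 overlap was 3.60% with an overlap of at least 50% and 3.12% with H3K4me3 past its limits. With 1 mismatch the core motif was found in 53.9%, a change that follows from the looser match. At edges with no other H3K27me3 interval within 20000 bp, members were 101 (near at least 1 such edge, with 1 edge at exactly 20000 bp included; the 99 of the report were near such edges only), edge to interior density 2.90, edge to shifted edge density 1.12 (0.818 to 1.55), edges with a member 26.99%, H3K4me3 overlap 14.9%, the core motif 19.8% and motifs facing the domain 40.0%. With only the outer side, edge to interior density was 2.36 and edge to shifted edge density reversed to 1.24 (1.14 to 1.36). With only the first 2000 bp outside, these were 3.24 and, reversed, 1.71 (1.54 to 1.89); here the inner side was left out by construction.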
